A study of Homo sapiens with 2 samples.

Results

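The genes described here are 10 genes of transforming growth factor beta (TGF-beta) and bone morphogenetic protein (BMP) signalling: the signal transducers SMAD2, SMAD3 and SMAD4, the inhibitory SMAD6 and SMAD7, the target genes ID1, ID2 and ID3, the ligand gene TGFB1 and the receptor gene TGFBR2. They were chosen by name, and all probe sets annotated to 1 of them alone were taken, which gave 28 probe sets for the 10 genes, among 19775 genes on the array. The samples were stable transfectants of MDA-MB 231, a human breast cancer cell line that lacks estrogen receptor and is highly invasive. The control cells carried the plasmid pIRES2-EGFP alone, and the other cells carried the same plasmid with S100A7 sub-cloned into it, so both held the EGFP cassette of the plasmid and both had gone through selection of stable cells. Each group was measured once, on 1 Affymetrix array of total RNA. The labels do not say whether either population was a clone or a pool.

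In this pathway a ligand such as TGF-beta 1 binds a pair of receptor kinases, which phosphorylate receptor SMADs. SMAD2 and SMAD3 carry TGF-beta and activin signals, SMAD1, SMAD5 and SMAD9 carry BMP signals, and both kinds enter the nucleus with the common partner SMAD4. SMAD6 and SMAD7 are inhibitory SMADs: they block receptor SMADs and are themselves transcribed in response to the signal, which closes a feedback loop. The ID genes encode helix-loop-helix proteins without a DNA-binding region that capture basic helix-loop-helix transcription factors, and they are classical targets of BMP signalling.

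Values are intensities from the MAS5 algorithm, in arbitrary linear units, and a log2 ratio is always the S100A7 array over the vector array. A probe set counted as measured when it reached the floor, the 50th percentile of its array (71.0 on the vector array, 69.0 on the S100A7 array), on at least 1 array. Lower values were set to the floor, so where 1 array was at the floor the fold change is only a bound, written "at least". With 1 array per group there was no replicate and no statistical test, so differences are given as sizes, and the spread between cultures is unknown. As a yardstick, log2 ratios of probe sets of the same gene differed with a pooled standard deviation of 0.36 over all genes with at least 2 measured probe sets. The transfected gene followed the labels: S100A7 was below the floor at 11.99 in vector cells and reached 13232 in S100A7 cells, a difference of at least 186-fold. Of 10 markers chosen for the line, VIM, KRT8, KRT18, EGFR, CD44, ERBB2 and EPCAM were measured with log2 ratios between -0.26 and 0.16, while ESR1, PGR and CDH1 stayed below it on both. Of 9 blood and immune cell markers 3 were measured and of 8 fibroblast and endothelial ones 4, with 0 of these outside 2-fold. The measured blood and immune markers were LAPTM5 (2563 in vector, 4048 in S100A7 cells), CD79A (315 and 202) and HBB (115 and 82.9). Of the fibroblast and endothelial ones, PECAM1 (132 and 168) and ACTA2 (149 and 132) were measured on both arrays. PDGFRB (65.4 and 117) and CDH5 (24.8 and 79.0) were measured through the S100A7 array alone, so their direction follows from the filter. PTPRC, TYROBP, LYZ, CD14, CD3E, VWF, LUM, PDGFRA and THY1 reached the floor on neither array, and CD68 was not analysed. The part of such markers in the results was not tested.

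All 10 genes had at least 1 measured probe set, and 21 of the 28 probe sets were measured. By the brightest measured probe set of each gene, SMAD7, SMAD6, ID3 and SMAD4 were higher in the S100A7 array by 2-fold or more, 0 of the 10 were lower by that much, and 6 lay within 2-fold. Over all 12688 measured genes, 1.80% were higher by 2-fold or more and 2.25% were lower. SMAD6 entered the measured set through the S100A7 array alone and therefore had to be higher there, and the 10 genes were put together with earlier results of these arrays known, so their count of 4 is a description. The median log2 ratio of the 10 genes was 0.44, against -0.04 for all measured genes, and for the 7 genes outside chromosome arm 18q it was -0.21. Counted by probe set, 5 of 21 were higher by 2-fold or more, against 2.20% of all 24438 measured probe sets with 1 gene, and 0 were lower by as much, against 2.13%. A higher or lower intensity in such bulk RNA does not tell more cells of a kind from more RNA in each cell.

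**Figure D1:**
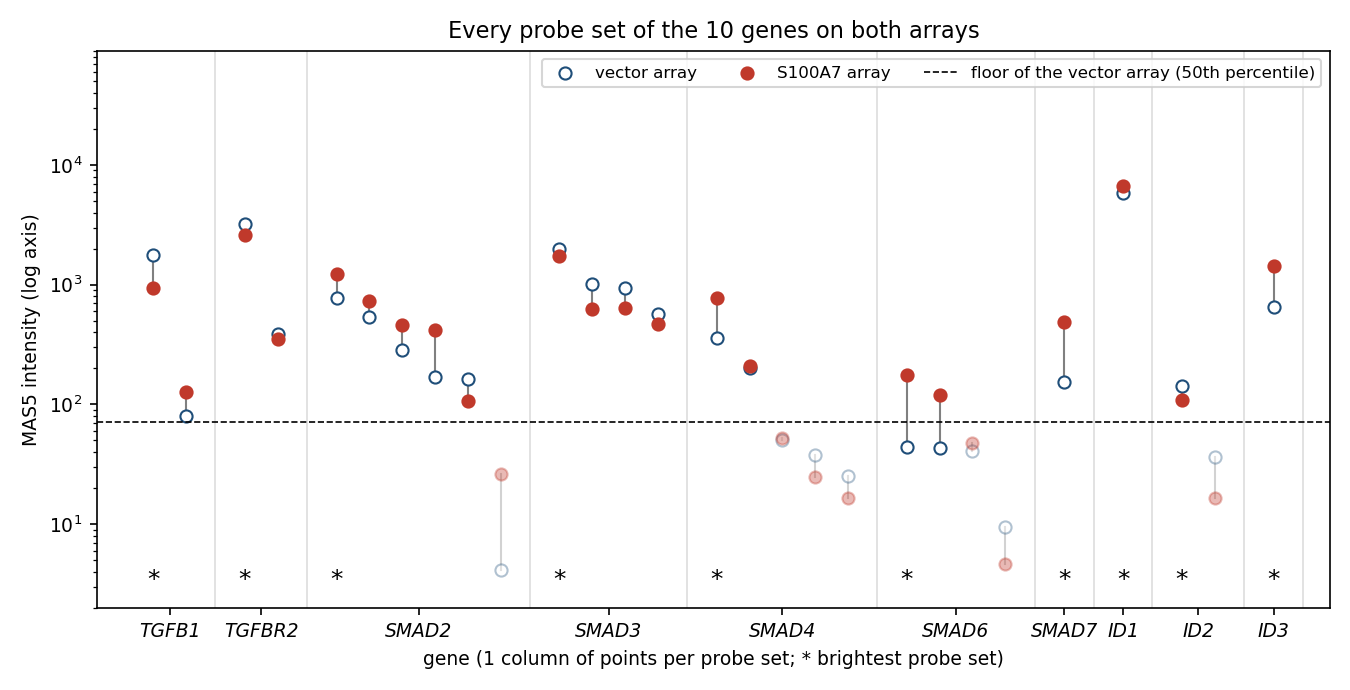
MAS5 intensity (log axis) of each of the 28 probe sets of the 10 genes, with 1 open point for the vector array and 1 filled point for the S100A7 array; the dashed line is the vector floor of 71.0, pale points are probe sets below the floor on both arrays, and asterisks mark the brightest probe set of each gene. SMAD7 and ID3 are higher in S100A7 cells and all 4 SMAD3 probe sets are lower. The probe sets of SMAD2, SMAD4 and TGFB1 differ among themselves. Both measured SMAD6 probe sets are higher too, a direction that follows from the filter.

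Of the inhibitory SMADs, SMAD7 was higher in S100A7 cells, while the direction of SMAD6 follows from the filter. SMAD7, which recruits ubiquitin ligases to the activated TGF-beta receptor, is read by 1 probe set, 204790_at, which gave 154 for vector and 491 for S100A7 cells. This was a 3.18-fold difference, and it placed SMAD7 at rank 41 from the highest of the 12688 measured genes. A stricter floor, at the 70th percentile, lay above the vector value and left a log2 ratio of at least 0.79, under 2-fold.

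SMAD6, which acts mainly on the BMP branch, was dim in both lines. Its brightest probe set, 207069_s_at, was under the floor at 44.4 in vector cells and reached 177 in S100A7 cells, which is at least 2.49-fold more. The second, 209886_s_at, read 42.9 and 119, at least 1.67-fold higher. Each of these probe sets was measured through the S100A7 array alone, so their shared direction follows from the filter and is no agreement between them, and neither gives a size beyond its bound. The remaining 2 probe sets of SMAD6, 209887_at (9.49 in vector cells, 4.67 in S100A7 cells) and 213565_s_at (40.9 and 47.5), reached the floor on neither array.

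The receptor SMADs of the TGF-beta branch went in different directions. SMAD3 gave 2001 for vector and 1726 for S100A7 cells by its brightest probe set, 218284_at, a 1.16-fold lower value. Its 3 other probe sets were lower too, at 1019 and 632 for 205398_s_at, 931 and 643 for 205396_at and 569.7 and 467.5 for 205397_x_at. All 4 probe sets of SMAD3 were thus lower in S100A7 cells, with log2 ratios between -0.69 and -0.21, each within 2-fold.

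SMAD2 was less uniform. The brightest of its 6 probe sets, 203076_s_at, gave 773 for vector and 1225 for S100A7 cells, 1.58-fold higher. Close to it were 203075_at, at 537.0 and 732, and 226563_at, at 285 and 459. The probe set 203077_s_at, at 169 and 415, was 2.46-fold higher, whereas 235598_at, at 162 and 106, was 1.52-fold lower. So 4 of the 5 measured probe sets were higher in S100A7 cells and 1 was lower, with log2 ratios from -0.60 to 1.30. Over the 10 genes, the pooled standard deviation between measured probe sets of a gene was 0.60, against 0.36 over all genes. The sixth, 239271_at, was below the floor on both arrays (4.14 and 26.5).

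For SMAD4, the partner shared by both branches, the reading depended on the probe set. The brightest, 202527_s_at, went from 356 in vector to 769 in S100A7 cells, 2.16-fold higher. The other measured one, 235725_at, read 200.3 and 209, a ratio of 1.04-fold. The suffix _s_at marks probes that can match several transcripts, and with such probe sets left out the log2 ratio of SMAD4 was 0.06; its median over both was 0.59. The 3 remaining SMAD4 probe sets, 202526_at (37.5 and 24.8), 1565703_at (50.04 and 52.2) and 1565702_at (25.2 and 16.7), were below the floor on both arrays. SMAD4 was therefore at least 2-fold higher on 1 of its 2 measured probe sets only.

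SMAD2, SMAD7 and SMAD4 lie in that order on the long arm of chromosome 18, with 1 measured gene (CTIF) between the first pair and 9 between SMAD7 and SMAD4. The arm as a whole was higher in the S100A7 array. Without the SMADs, 124 measured genes of 18q had a median log2 ratio of 0.37, with quartiles of 0.13 and 0.64, and 100 of them (80.6%) were above 0, against 45.4% of 12492 genes on other chromosomes, whose median was -0.04. On the short arm the median was 0.21 over 52 genes, of which 73.1% were above 0. At least 2-fold higher were 5 of the 124 genes of 18q, or 4.03%, against 1.76% of genes on other chromosomes. At least 2-fold lower were 2 of the 124, against 282 of the 12492.

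Against this arm the SMADs stood at different places. SMAD2, with a log2 ratio of 0.66, was 0.30 above the 18q median, and 27 of the 124 genes were as high or higher. SMAD4, at 1.11 by its brightest probe set, was 0.74 above it, with 3 of 124 as high. SMAD7, at 1.67, was 1.30 above it, and 0 of the 124 reached its value. The next highest genes of the arm were MBP (1.25), ABHD3 (1.13) and MEX3C (1.12), the last of which lies beside SMAD4; MBP and ABHD3 were named after their values were seen.

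The immediate surroundings had a higher median than the arm. Around SMAD2, SMAD4 and SMAD7, the 10 nearest measured genes on each side make up 30 different genes besides the SMADs, and 25 of them had a log2 ratio above 0, with a median of 0.58. MEX3C, an RNA-binding ubiquitin ligase gene, was at least 2-fold higher in this set (170 in vector cells, 369 in S100A7 cells) and 0 were at least 2-fold lower. Among the 30, SIGLEC15, LIPG, POLI and CCDC68 were measured through the S100A7 array alone. CELF4, RAB27B and TCF4 were measured through the vector array alone. For each of these genes the direction follows from the filter. Compared with its own 20 neighbours, other members included, SMAD2 differed by 0.05 on the log2 scale, SMAD4 by 0.56 and SMAD7 by 1.04. By its brightest probe set SMAD2 thus read like the genes around it. Of the SMADs on 18q only SMAD7 kept a difference of at least 2-fold from its surroundings. The measured probe sets of SMAD2 ran from -0.60 to 1.30, and the other one of SMAD4 read 0.06. SMAD7 rests on 1 probe set, with a log2 ratio of at least 0.79 at the 70th percentile floor. The part that the level of this region has in the readings of the SMADs was not tested.

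**Figure D2:**
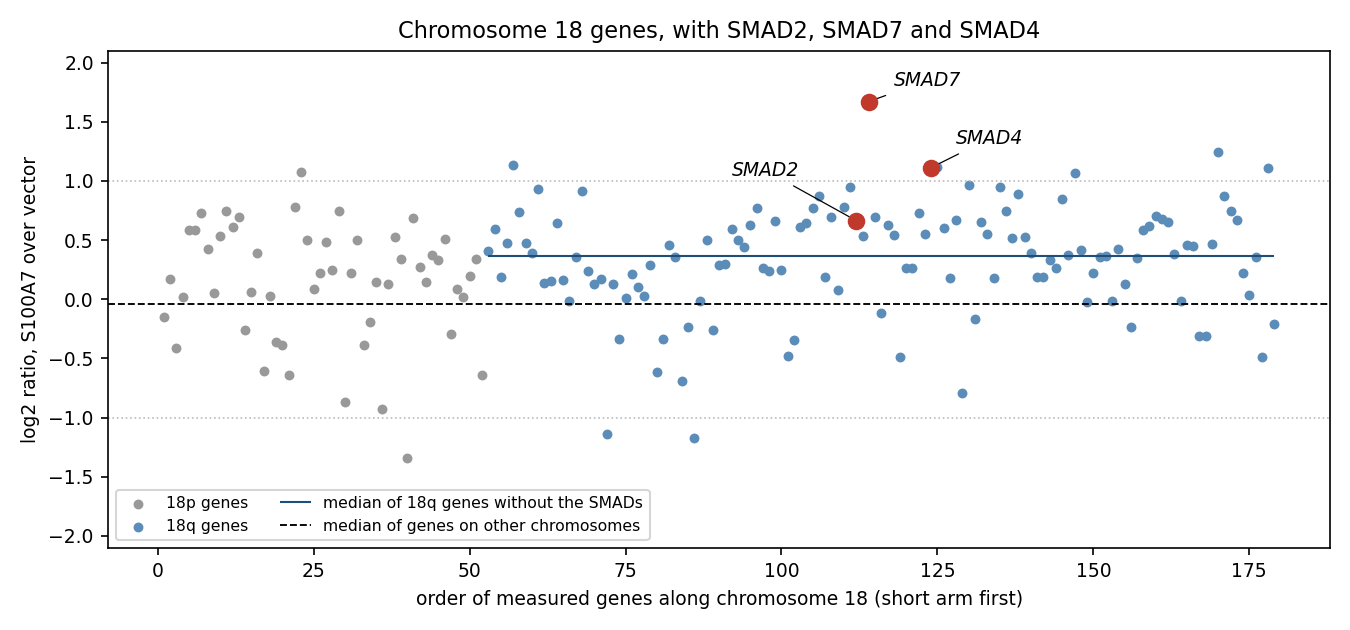
Log2 ratio of each measured gene of chromosome 18 (S100A7 over vector) in its order along the chromosome, short arm first. The solid line is the 18q median of 0.37 without the SMADs and the dashed line the median of -0.04 on other chromosomes; dotted lines mark 2-fold. SMAD7 at 1.67 is above every other 18q gene, SMAD4 at 1.11 is near the top, and SMAD2 at 0.66 is among its neighbours.

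SMAD6 and SMAD3 are next to each other on chromosome 15, with 0 measured genes between them, and here the surroundings were low. Their 20 nearest other genes had a median log2 ratio of -0.45, and 19 of them were below 0. MEGF11, named after its value was seen, was the 1 outside 2-fold, at 233 in vector and 28.1 in S100A7 cells, at least 3.37-fold lower. MEGF11 was measured through the vector array alone, so its direction follows from the filter too. SMAD3, at -0.21, was 0.20 above the median of its own 20 neighbours, SMAD6 included, which was -0.42. SMAD6 was at least 1.31 on the log2 scale, whereas the highest of the 20 other genes was 0.15. SMAD6 was measured through the S100A7 array alone, so its direction follows from the filter. The lower reading of SMAD3 beside it is therefore no contrast between the adjacent genes.

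Of the ID genes, ID3 was more than 2-fold higher while ID1 and ID2 were within 2-fold, each by 1 measured probe set with the suffix _s_at. ID3, through 207826_s_at, was at 651 in vector and 1427 in S100A7 cells, 2.19-fold higher and at rank 147 from the highest of all measured genes. ID1, through 208937_s_at, read 5794 and 6704, 1.16-fold higher. ID2, through 201565_s_at, read 142 and 109.8, 1.29-fold lower, and its other probe set, 201566_x_at, was below the floor on both arrays (36.3 and 16.5). A further probe set lists ID2 together with ID2B and was left out; it read 4.44 and 5.34.

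The ID genes lie on different chromosomes. ID3, on chromosome 1, was 0.88 on the log2 scale above the median of its 20 neighbours, which was 0.25, and 0 of the 20 were as high. With the 40 nearest genes in place of 20, its log2 ratio after subtraction was 0.83, under 2-fold. ID1 was 0.39 above the median of its neighbours on chromosome 20, and ID2 was 0.27 below that of its neighbours on chromosome 2 (a difference of -0.27).

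By their brightest probe sets, the ligand and the receptor gene were lower in S100A7 cells, both within 2-fold. TGFB1, through its brightest probe set 203085_s_at, was at 1764 in vector and 940.5 in S100A7 cells, 1.88-fold lower, at rank 383 from the lowest of all measured genes. The other, 203084_at, went the opposite way at 80.8 and 126, near the floor, 1.56-fold higher. The direction for TGFB1 therefore rested on the probe set ending in _s_at: without such probe sets the log2 ratio was 0.64, and the median over both was -0.13. Of its 20 neighbours on chromosome 19, whose median was -0.25, 19 were as high as TGFB1 or higher. TGFBR2, the kinase that binds TGF-beta and activates the type I receptor, read 3215 and 2626 by 208944_at and 384 and 352 by 207334_s_at, 1.22-fold and 1.09-fold lower. The TGFBR2 log2 ratios were -0.29 and -0.13. The spread of 0.36 between probe sets of a gene does not measure how far cultures differ.

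**Figure D3:**
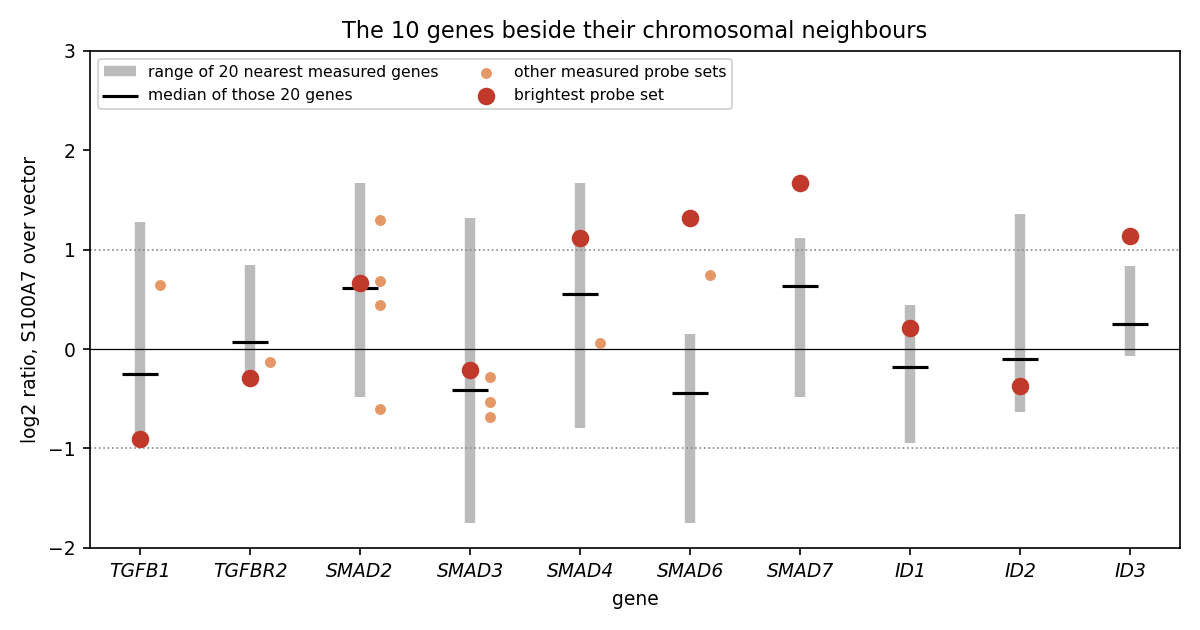
Log2 ratio (S100A7 over vector) of the 10 genes by their brightest probe set (large points) and their other measured probe sets (small points), beside the range (grey bars) and median (black marks) of the 20 nearest measured genes on the same chromosome. SMAD7 and ID3 lie above the whole range of their neighbours, and so does SMAD6, as a bound whose direction follows from the filter. By their brightest probe sets, SMAD2 lies on its neighbours' median, SMAD3 among low neighbours, and TGFB1 at the lower end of its neighbours' range.

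The upstream sequences of the 4 genes with a brightest probe set at least 2-fold higher are printed to show which SMAD motifs they hold. They are the 250 bases before the annotated start, from RefSeq on GRCh38.p14, which lists 18 starts for the 10 genes; the outermost start was used for SMAD7, which has 3. SMAD7 is at chr18:48950966-48951215 (minus strand), SMAD6 at chr15:66701986-66702235 (plus strand), ID3 at chr1:23559502-23559751 (minus strand) and SMAD4 at chr18:51029963-51030212 (plus strand). Capitals mark every match, on either strand, to GTCTAGAC (the palindromic SMAD-binding element), CAGACA (the CAGA box of TGF-beta-responsive promoters), GTCT (the SMAD half-site, contained in both of these) and the GC-rich GGCGC and GGCCG, which can overlap each other.
SMAD7: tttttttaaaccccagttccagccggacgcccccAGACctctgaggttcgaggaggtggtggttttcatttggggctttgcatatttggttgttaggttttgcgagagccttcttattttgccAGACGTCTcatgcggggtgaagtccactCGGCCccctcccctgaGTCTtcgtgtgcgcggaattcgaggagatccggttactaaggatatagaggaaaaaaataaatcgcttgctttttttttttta
SMAD6: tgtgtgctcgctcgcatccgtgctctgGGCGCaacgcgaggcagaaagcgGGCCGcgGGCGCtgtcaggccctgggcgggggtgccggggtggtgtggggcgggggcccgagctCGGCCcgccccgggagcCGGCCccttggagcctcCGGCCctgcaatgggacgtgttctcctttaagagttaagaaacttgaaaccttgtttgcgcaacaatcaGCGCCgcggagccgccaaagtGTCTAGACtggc
ID3: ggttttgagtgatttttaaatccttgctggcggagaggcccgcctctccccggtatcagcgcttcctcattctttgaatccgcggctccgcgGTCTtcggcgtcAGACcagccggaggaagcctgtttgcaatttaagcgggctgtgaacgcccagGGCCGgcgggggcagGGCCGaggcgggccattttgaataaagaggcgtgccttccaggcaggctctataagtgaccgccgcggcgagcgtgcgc
SMAD4: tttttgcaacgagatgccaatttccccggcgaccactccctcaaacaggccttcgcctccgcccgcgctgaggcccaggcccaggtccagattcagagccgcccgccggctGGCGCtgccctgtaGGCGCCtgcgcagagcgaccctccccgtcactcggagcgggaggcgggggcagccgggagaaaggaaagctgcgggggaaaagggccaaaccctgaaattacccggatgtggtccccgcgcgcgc

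The palindrome GTCTAGAC occurred in 1 of the 18 windows of the 10 genes, that of SMAD6, from 12 to 5 bases before the start. It was present in 64 of all 35114 upstream windows of this length, or 0.182%, and in 19 of the 14962 windows of measured genes, or 0.127%. GTCT itself was in 14 of the 18 windows of the 10 genes, in 77.5% of all windows and in 75.2% of those of measured genes, so its presence sets no gene apart. The printed SMAD7 window held it 4 times, ID3 and SMAD6 2 times each and SMAD4 0 times; ID1 held it 3 times. CAGACA was in 1 of the 18 windows, at an inner start of SMAD3, against 13.6% of all windows and 10.5% of those of measured genes. GGCGC matched 3 times in SMAD6 and 3 times in SMAD4, and 0 times in the printed SMAD7 and ID3 windows; 7 of the 18 windows, 44.5% of all windows and 63.2% of those of measured genes held it. GGCCG matched 4 times in SMAD6, 2 times in ID3, 1 time in SMAD7 and 0 times in SMAD4; 12 of the 18 windows, 44.7% of all and 61.9% of those of measured genes held it. A match is a description of these letters, and enhancers outside the windows were not searched.

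Around the 10 genes, 126 other genes of the pathway were grouped into 8 lists by role. Of these, 91 were measured, 25 were below the floor on both arrays and 10 were not analysed here. BMP8B, SNAI2, IL11 and HES1, 4 of 91, passed 2-fold upwards and 0 passed it downwards, and the median log2 ratio was 0.04. Of all measured genes, 1.80% passed 2-fold upwards and 2.25% downwards.

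Among the ligands, 12 of 23 were measured. BMP8B was at 111 in vector and 248.02 in S100A7 cells, 2.23-fold higher, and its other measured probe set had a log2 ratio of 0.65. TGFB2, which signals through the same receptors as TGFB1, read 1453 and 2671, 1.84-fold higher by its brightest probe set, with others down to -0.03 on the log2 scale. Their list had a median of -0.15, with 1 at least 2-fold higher and 0 lower. Of genes that store or activate latent TGF-beta, 8 of 11 were measured and 0 passed 2-fold; the brightest, the activator THBS1, read 4287 and 4328.

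Receptors other than TGFBR2 were measured for 9 of 13 genes, 0 of them outside 2-fold, with a median of 0.08. The co-receptor ENG (endoglin) was at 3522 in vector and 2904 in S100A7 cells. The BMP-branch receptor SMADs and the regulators of SMADs likewise had 0 of 23 measured genes (of 25 listed) outside 2-fold, with a median of 0.10 and log2 ratios between -0.41 and 0.70. FKBP1A, the brightest of the list, whose product holds type I receptors inactive, read 17544 and 19310. Over all 8 lists, probe sets other than the brightest passed 2-fold for 7 genes: upwards for TGFBR1 (log2 ratio 1.02), TGFBR3 (1.11), ACVR1B (1.14), NEDD4L (1.41) and IL11 (1.03), downwards for FN1 (-1.18), and in both directions for the ubiquitin ligase gene SMURF1 (-1.59 and 1.93). These 8 probe sets are named because they passed 2-fold, and the number looked through was not counted. Of all measured probe sets with 1 gene, 2.20% passed 2-fold upwards and 2.13% downwards. The 5 measured probe sets of FN1, the fibronectin gene, were all lower, the brightest at -0.60. Secreted antagonists were measured for 6 of 13 genes with a median of -0.20 and 0 outside 2-fold, and FSTL1, the brightest, read 2795 and 5488, a log2 ratio of 0.97.

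Target genes of TGF-beta were measured for 20 of 23 listed. IL11, a cytokine that signals through gp130, was at 560 in vector and 2049 in S100A7 cells, 3.66-fold higher, with its other probe set at 1.03 on the log2 scale. SNAI2, the transcriptional repressor Slug, read 1377 and 2912, 2.11-fold higher by 1 probe set. The remaining 18 lay within 2-fold, CCN1, the brightest, at 29624 and 30844, and the list's median was 0.04. All 10 BMP target genes were measured, 9 of them within 2-fold and with a median of 0.13. HES1, a repressor that also answers to Notch, read 252 and 699.7, 2.78-fold higher, but its other probe set had a log2 ratio of 0.35. RUNX2, the brightest of that list, read 799 and 1023.

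Basic helix-loop-helix partners that ID proteins bind were measured for 3 of 8 genes, 0 outside 2-fold. TCF12, the brightest, was at 2568 in vector and 1756 in S100A7 cells. Of the pathway genes, 4 also lie on chromosome 18 and were picked out by position. NEDD4L, a ubiquitin ligase of 18q that targets SMADs, read 3348 and 4808, TGIF1, a SMAD co-repressor of 18p, 964 and 1562, and TWSG1, a BMP-binding protein of 18p, 2363 and 3308. These 3 were 1.44-fold, 1.62-fold and 1.40-fold higher. TCF4, on 18q, read 77.3 and 22.7, at least 1.12-fold lower, a direction that follows from the filter.

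**Figure D4:**
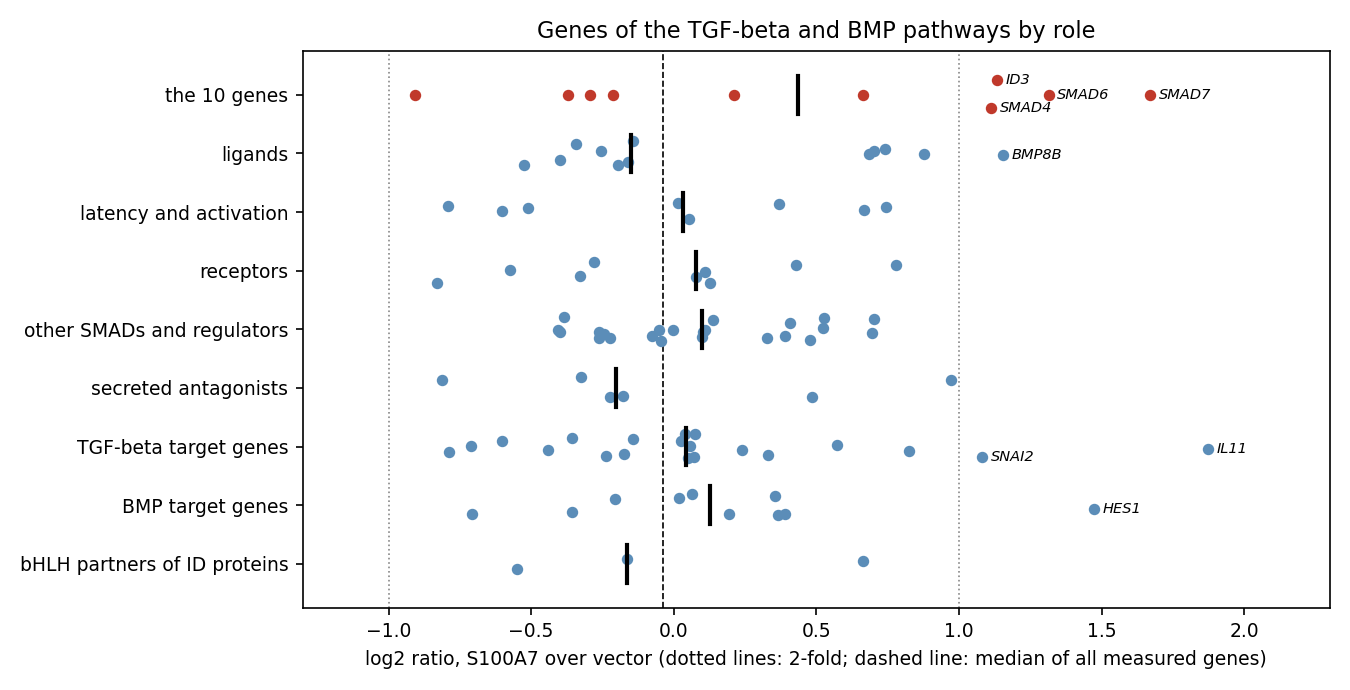
Log2 ratio (S100A7 over vector) of the 10 genes and of the 91 measured genes in the 8 lists by role, with 1 point per gene by its brightest probe set and a vertical bar at each median. Dotted lines mark 2-fold, and the dashed line is the median of all measured genes, -0.04; the named genes are those at least 2-fold higher, and 0 genes are at least 2-fold lower.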

How the data were processed

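RNA of 1 vector and 1 S100A7 line was measured on 1 array each (54675 probe sets). The deposited values are intensities on a linear scale, made by the authors with MAS5 per the submitters' processing notes; version, scaling target and detection calls were not given in the sources used here. With 2% cut from either end, both arrays had a mean of 500.1, so values were used as deposited. The platform annotation gave 41091 probe sets 1 gene, 1801 several and 11721 none listed, and 41031 were matched by Entrez identifier to current symbols and gene order on GRCh38.p14. Each gene was read by its brightest measured probe set. The members, lists and tests were chosen with earlier results of these data known. Named were every member, S100A7, each pathway gene at least 2-fold different, each pathway list's brightest gene, and 18q neighbours at least 2-fold different; other names were chosen after their values were seen. Counting was tested on simulated data. Other settings were median centring, quantile normalization, a 30th or a 70th percentile floor, no floor, no filter, a pseudocount of 32, the median over probe sets, no _s_at or _x_at probe sets, subtraction of 40 chromosomal neighbours, and thresholds of 1.5-fold and 3-fold. Python 3.11.15, pandas 2.3.3 and numpy 2.4.6 were used.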

Additional observations from a re-analysis of the deposited data

How the results depend on the processing

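With 1 array per group the number of arrays limits the precision, and no setting below measures the spread between cultures. No paired analysis was possible because each group has 1 array. Of the 10 genes, 4 were at least 2-fold higher. With a floor at the 70th percentile, where SMAD6 was not measured, the count was 2 of the 8 genes left (1.10% of all genes there). Without probe sets ending in _s_at or _x_at it was 1 of the 6 genes left (2.29%). It was 2 after subtracting 40 chromosomal neighbours (1.94%) and 3 with a gene's probe sets summarised by their median (1.36%). At a threshold of 3-fold it was 1 (0.370%) and at 1.5-fold 5 (8.12%). The count at least 2-fold lower, 0, was 1 at a threshold of 1.5-fold, against 10.05% of all genes. Among the other pathway genes, the 4 higher of 91 became 10 of 116 with no filter and no floor (9.66% of all genes there), 2 after subtracting neighbours, 2 with a gene's probe sets summarised by their median, 16 at 1.5-fold (8.12%) and 1 at 3-fold (0.370%), and the 0 lower became 4 of 108 with a floor at the 30th percentile (5.84% of all genes), 4 of 91 with no floor (5.20%), 5 of 116 with no filter and no floor (12.1%), 3 of 91 with a pseudocount of 32 (3.20%) and 8 of 91 at 1.5-fold (10.05%). Without _s_at and _x_at probe sets SMAD6 and ID3 had no measured probe set and SMAD4 was read by one at 0.06; SMAD4 (0.56) and ID3 (0.83) went under 2-fold when neighbours were subtracted. For the other changes not made by a threshold, floor or filter, the cause was not tested. SMAD7 was above 0 in 10 of 10 alternatives (log2 ratio 0.79 to 1.71), ID3 in 9 of 9 (0.83 to 1.17) and SMAD4 in 10 of 10 (0.06 to 1.16). All alternatives reuse the same 2 arrays, so these counts are no independent check. For SMAD7 and ID3, with 1 probe set each, the median over probe sets returns the main value. So does any floor below both of their intensities. SMAD6 ran from 1.03 to 1.99 over the 8 alternatives that measured it. At the 50th percentile floor its direction follows from the filter, which these values therefore do not check; with the floor at the 30th percentile both arrays were above it, at 1.99. SMAD3 was below 0 in 9 of 10 and at 0.17 after subtracting neighbours; TGFB1 was below 0 in 9 of 10 and at 0.64 without _s_at and _x_at probe sets.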
